A study of Mus musculus with 30 samples.

Results

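Cytochrome P450 enzymes are heme-bound monooxygenases that insert an oxygen atom into small hydrophobic molecules, drawing electrons from the reductase Por in the endoplasmic reticulum or from ferredoxin in mitochondria. Some P450s carry out fixed steps in the making and breaking of steroid hormones, sterols, bile acids, vitamin D and retinoic acid, and the large families 1 to 4 oxidize drugs, environmental chemicals and fatty acids, mostly in liver. In the brain they are known for cholesterol turnover and local steroid synthesis, and in the eye for retinoic acid breakdown and for CYP1B1, mutations of which cause congenital glaucoma in people.

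The P450 genes described here were all probes of the array whose gene name starts with Cyp and a digit, which gave 117 probes for 82 genes among 41174 probes and 28146 gene names. Their RNA was measured in adult male wild-type (WT) mice and in littermates lacking the circadian gene Per3 (Per3-/-) on a C57Bl/6J background, in a hypothalamic block cut around the optic chiasm and in whole eye. All mice had lived through 17 ultradian cycles of 3.5 h of light and 3.5 h of dark, and tissue was taken in the last light phase. There were 8 WT and 8 Per3-/- hypothalami and 7 WT and 7 Per3-/- eyes, 1 array each. Eyes and hypothalami were taken as coming from the same mouse where genotype and replicate number matched, which gave 14 mice with both tissues. Both tissues are mixtures of cell types, and in such bulk RNA fewer cells of a type and less RNA per cell cannot be told apart.

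Levels are log2 of the processed signal relative to the array's 75th percentile, so that 0 is the level of the probe at that percentile. That percentile lay between 1192 and 1736 intensity units on the eye arrays and between 1440 and 2253 on the hypothalamus arrays, and 67.9% to 80.7% of the probes were well above background. Sums of neuropeptide and other hypothalamic marker genes were 7.16 to 7.59 in the hypothalamus and 0.72 to 1.12 in the eye, and sums of photoreceptor, lens and other eye markers were 10.01 to 10.44 in the eye and -2.09 to -1.19 in the hypothalamus, all on the log2 scale. The Per3 probe was 0.51 lower in Per3-/- hypothalamus (limma, adjusted p = 0.0678) and 0.45 lower in Per3-/- eye (limma, adjusted p = 1.0), and which part of Per3 it reads relative to the disrupted part was not given in the sources used here. Eye of Per3-/- mouse 2 and hypothalami of Per3-/- mice 1 and 7 stood apart from the others. They were more than 1 log2 unit above the next array for 155, 195 and 175 of the detected probes, against 2 to 23 for every other eye and 9 to 37 for every other hypothalamus.

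Each gene was read by probes of 60 bases. The probes below are those of the 3 genes followed most closely (Cyp1a1, Cyp1b1, Cyp2e1), shown with both Cyp1b1 probes because these differed in whether they were detected, and those of the genes that varied most between mice or differed most between the tissues. Sequences and positions (assembly mm9) are those in the array files.
Cyp1a1, chr9:57551535-57551594, plus strand: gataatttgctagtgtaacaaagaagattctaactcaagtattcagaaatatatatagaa
Cyp1b1, first probe, chr17:80106547-80106606, minus strand: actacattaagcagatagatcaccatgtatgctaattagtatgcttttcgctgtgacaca
Cyp1b1, second probe, chr17:80100918-80100977, minus strand: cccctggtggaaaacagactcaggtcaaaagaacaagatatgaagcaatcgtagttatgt
Cyp2e1, chr7:147959585-147959644, plus strand: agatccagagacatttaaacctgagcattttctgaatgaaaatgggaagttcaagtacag
Cyp2a4, chr7:27099932-27099991, plus strand: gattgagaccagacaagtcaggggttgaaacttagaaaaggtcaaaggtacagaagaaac
Cyp2a5, chr7:27628169-27628228, plus strand: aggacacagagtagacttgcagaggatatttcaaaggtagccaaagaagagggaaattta
Cyp2f2, chr7:27918570-27918629, plus strand: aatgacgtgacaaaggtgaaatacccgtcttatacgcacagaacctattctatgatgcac
Cyp2j9, chr4:96235281-96235340, minus strand: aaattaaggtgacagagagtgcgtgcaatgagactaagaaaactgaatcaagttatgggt
Cyp3a41a, chr5:146505792-146505851, minus strand: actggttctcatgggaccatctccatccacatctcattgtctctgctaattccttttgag
Among all P450 probes, no pair of different genes shared 85% or more of its bases over an ungapped stretch of 45 or more. Binding of a probe to the transcript of a close paralog was not tested, and values of members of the Cyp2a, Cyp2c, Cyp2d, Cyp3a and Cyp4a groups are uncertain to that extent.

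More P450 genes were detected in the eye than in the hypothalamus. A probe was called detected in a tissue where it was well above background on a majority of its arrays. This held for 65 of the 117 P450 probes in the hypothalamus (55.6%, against 71.4% of all probes) and for 88 in the eye (75.2%, against 75.3% of all probes). By gene, 50 of 82 were detected in both tissues, 19 in the eye and not in the hypothalamus, 0 in the hypothalamus and not in the eye, and 13 in neither. Of all 28146 gene names, 19628 were detected in the hypothalamus and 20953 in the eye, and their overlap was not counted. The 4 counts of P450 genes therefore have no background beside them. Those 13 were Cyp2a12, Cyp2ab1, Cyp2b23, Cyp2c38, Cyp2c39, Cyp2c54, Cyp2d13, Cyp2d34, Cyp2j5, Cyp4a29, Cyp4a31, Cyp8b1 and Cyp11b2, the last being the aldosterone synthase. Of the vitamin D probes, 1 of 4 was detected in the hypothalamus and 4 of 4 in the eye. In family 2 the counts were 30 and 43 of 59 probes, in family 3 they were 3 and 6 of 8, and in family 4 they were 14 and 16 of 19. Steroid hormone genes did not show this gap, with 5 of 8 probes detected in hypothalamus and 4 in eye. The retinoic acid genes Cyp26a1 and Cyp26b1 were detected in both tissues, and so were all 11 probes of the electron donors (Por, cytochrome b5 and its reductase, and the ferredoxins with their reductase).

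Between WT eye and WT hypothalamus, 92 of the 117 P450 probes differed at an adjusted p under 0.05, against 75.3% of all probes. Of these, 75 were higher in the eye (background 40.8%) and 17 were higher in the hypothalamus (background 34.5%). Eye and hypothalamus arrays were on different slides, so tissue and slide cannot be told apart. The median difference over all probes was 0.11 (log2, eye minus hypothalamus), and over the P450 probes it was 1.26. Quantile normalization moved these medians to -0.07 and 0.85, with 64 P450 probes higher in the eye and 20 in the hypothalamus. With normexp background correction they were 0.09 and 0.50, with 55 and 12.

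**Figure D1:**
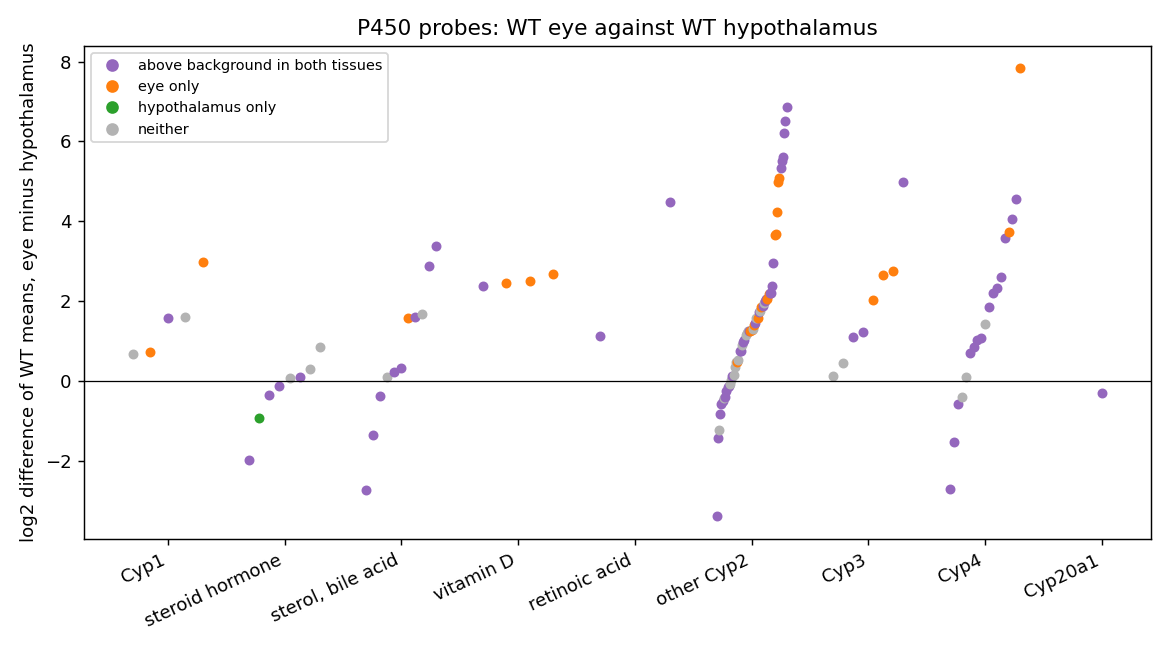
Each point is 1 P450 probe, grouped by role or family on the horizontal axis and ordered by value within a group. The vertical axis is the log2 difference of the WT means, eye (n = 7) minus hypothalamus (n = 8), and colors give the tissues in which the probe was well above background on a majority of the arrays. Most points lie above 0, and the single-role probes below 0 are those of sterol and steroid enzymes.

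The members with the widest gap in favor of the eye belonged to families 2 and 4. Cyp4a12b, a fatty acid hydroxylase, was well above background on 0 of 8 WT hypothalamus arrays and on 7 of 7 WT eye arrays (0.18 ± 0.26, SD), which placed it at least 103-fold higher in the eye (limma, adjusted p = 9.6e-22). Cyp2a5, a coumarin hydroxylase of liver and airway lining, was at -3.04 ± 0.29 in WT hypothalamus and at 3.46 ± 0.82 in WT eye, 90.8-fold higher (limma, log2 difference 6.51, SE 0.44, adjusted p = 4.7e-14). Its neighbor Cyp2a4, a steroid hydroxylase, was 74.1-fold higher by the brightest of its 3 probes and 40.7-fold and 116-fold higher by the others. These 2 genes lie in 1 cluster on chromosome 7 with Cyp2f2, an airway enzyme that oxidizes naphthalene, which was 48.9-fold higher in the eye (limma, SE 0.50 on the log2 scale, adjusted p = 2.5e-11). Cyp2e1, the ethanol-oxidizing P450 of liver and fat, was at -5.84 ± 1.04 in WT hypothalamus and at -0.30 ± 1.03 in WT eye, 46.0-fold higher (limma, adjusted p = 2.7e-09).

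The 4 probes of vitamin D genes and both probes of retinoic acid genes were higher in the eye. Cyp24a1, which breaks down active vitamin D, was 6.48-fold higher. The brighter probe of Cyp27b1, which makes it, was 5.18-fold higher, and Cyp2r1, which carries out the step before, was 5.50-fold higher. Cyp24a1 (-8.10 to -6.09 in WT hypothalamus) and Cyp2r1 (-7.34 to -6.31) were not detected in the hypothalamus. Their folds are therefore against signals near background. Vdr, the vitamin D receptor, was higher in the eye by 2.87 on the log2 scale. Cyp26a1, a retinoic acid hydroxylase, was at -5.80 ± 0.41 in WT hypothalamus and at -1.32 ± 0.30 in WT eye, 22.3-fold higher (limma, adjusted p = 3.1e-22). Its relative Cyp26b1 was higher by 2.18-fold, from -0.08 ± 0.34 to 1.04 ± 0.24.

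Of the 5 probes of the aryl hydrocarbon receptor group, 3 (Cyp1a1 and both of Cyp1b1) passed the test and were higher in the eye. Cyp1b1 was 2.97-fold higher in the eye (limma, adjusted p = 1.8e-11). Cyp1a1 was well above background on 0 of 16 hypothalamus arrays, and in WT eye it was at least 2.42-fold higher (limma, adjusted p = 2.8e-07). The 2 probes of Cyp1a2, the liver counterpart of Cyp1a1, did not pass (limma, log2 differences 0.68 and 0.72, adjusted p = 0.18 and 0.054), and they were well above background on 0 of 8 WT hypothalamus arrays and on 0 and 4 of 7 WT eye arrays. The receptor gene Ahr was higher in the eye by 1.70 and its repressor Ahrr by 5.89 on the log2 scale.

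Sterol genes went both ways. Cyp46a1, the neuronal enzyme that hydroxylates cholesterol for export from the brain, was at 0.21 ± 0.14 in WT hypothalamus and at -2.51 ± 0.27 in WT eye, 6.56-fold higher in the hypothalamus (limma, adjusted p = 4.7e-21). Cyp39a1, which hydroxylates the sterol that Cyp46a1 makes, lay the other way, 7.41-fold higher in the eye by its brighter probe and 10.4-fold higher by the other. Cyp7b1, an oxysterol and neurosteroid hydroxylase, was 2.53-fold higher in the hypothalamus. Cyp27a1, the mitochondrial sterol hydroxylase, was 3.03-fold higher in the eye. The 3 probes of Cyp51, the lanosterol demethylase of cholesterol synthesis, disagreed at 0.23, 0.33 and -0.37 (log2, eye minus hypothalamus), each with an adjusted p under 0.05. Cyp7a1, the rate-limiting enzyme of bile acid synthesis in liver, was well above background on 0 of 8 WT hypothalamus and 5 of 7 WT eye arrays and was at least 1.79-fold higher in the eye. Cyp8b1, which directs bile acid synthesis to cholic acid, was well above background on no array of either tissue.

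Of the 8 steroid hormone probes, 5 did not pass the test between the tissues. Cyp19a1, the aromatase that makes estrogens, was at -3.43 ± 0.45 in WT hypothalamus and at -5.39 ± 0.42 in WT eye by the probe that was detected, 3.91-fold higher in the hypothalamus (limma, adjusted p = 5.3e-11). Cyp17a1, the steroid hydroxylase and lyase of androgen synthesis, was at 1.66 ± 0.32 in WT hypothalamus and 1.33 ± 0.26 in WT eye, a difference that did not pass the test (limma, adjusted p = 0.082). Cyp21a1, a hydroxylase of corticosteroid synthesis, did not pass either (limma, log2 difference -0.13, adjusted p = 0.59). Cyp11a1, which cleaves the cholesterol side chain, had 1 probe that did not differ past the threshold (0.11, adjusted p = 0.62, limma) and 1 that was 1.89-fold higher in the hypothalamus (adjusted p = 0.00025, limma), and quantile normalization turned the first to -0.59. Cyp11b2 was 0.86 higher in the eye (limma, adjusted p = 0.012) but was well above background on 0 of 8 WT hypothalamus and 1 of 7 WT eye arrays, so no fold is given.

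Of the members outside these roles, Cyp2j9, a fatty acid epoxygenase known from brain, was the one with the widest gap in favor of the hypothalamus. It was at 3.24 ± 0.07 in WT hypothalamus and at -0.14 ± 0.11 in WT eye, 10.4-fold higher (limma, adjusted p = 4.0e-30). Cyp4f14, which inactivates leukotriene B4, was 6.43-fold higher in the hypothalamus, and Cyp4f15 was 2.87-fold higher. Cyp3a13 was 31.9-fold higher in the eye. For Por, the reductase that serves the P450s of the endoplasmic reticulum, the eye was higher by 0.64 on the log2 scale, whereas Fdxr, the reductase of the mitochondrial chain, was lower in the eye by a difference of -1.03.

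Between the genotypes, 0 of the 117 P450 probes passed an adjusted p under 0.05 in either tissue by limma, and 0 did by the methods' t-test. Of all probes, 0.0413% passed in hypothalamus and 0.0194% in eye. At an unadjusted limma p under 0.05 there were 2 P450 probes in the hypothalamus (1.71%, against 2.81% of all probes) and 1 in the eye (0.855%, against 1.8% of all probes). Differences of more than 2-fold were seen for 1 probe in each tissue, against 0.172% (hypothalamus) and 0.168% (eye) of all probes. The lowest adjusted p of a P450 probe was 0.989 in hypothalamus and 1.0 in eye (limma). The tissues differed in genotype effect at that threshold for 0 P450 probes (0.00486% of all probes) and at an unadjusted limma p under 0.05 for 2, Cyp26b1 and Cyp39a1 (1.71%, against 2.26% of all probes). The methods also used rank products, a test that was not run here. From it the paper reports, in the eye, a linked group of genes of which several are tied to P450 metabolism. Its enriched terms in the eye include steroid hydroxylase and oxidoreductase activity. The paper also lists Cyp2e1 among the genes that differed between the genotypes in both eye and hypothalamus.

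**Figure D2:**
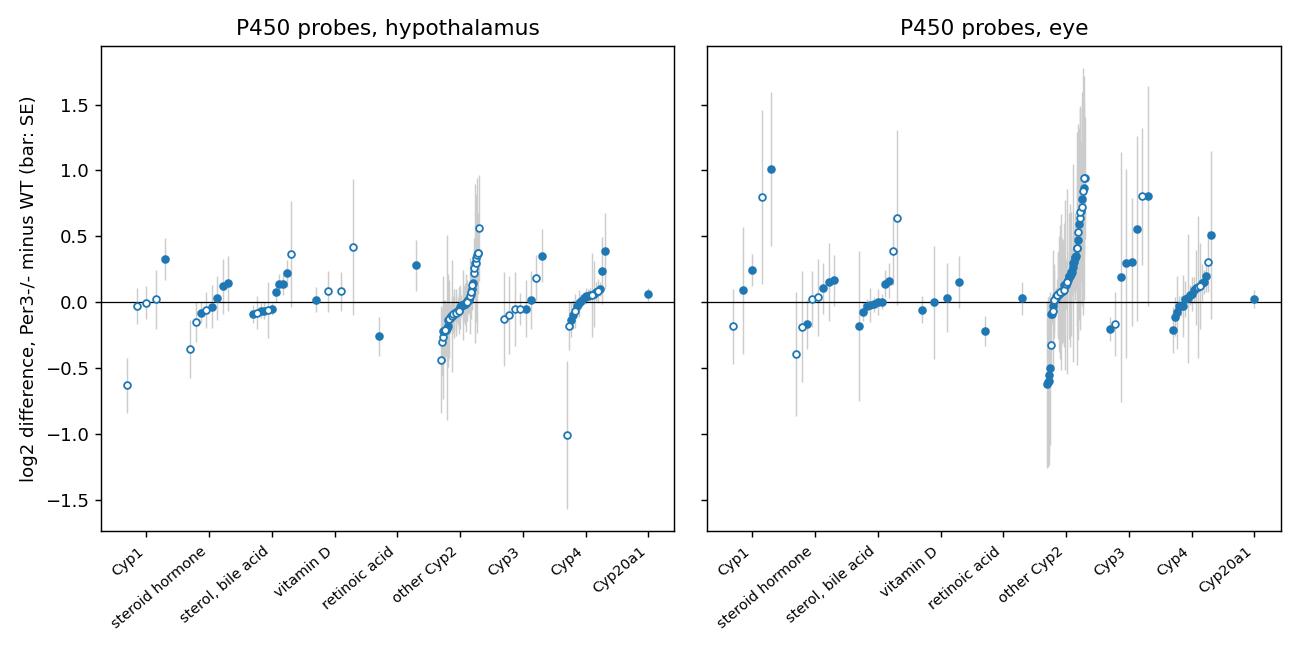
Each point is 1 P450 probe, grouped as in the plot of tissue differences. The vertical axis is the log2 difference of the means, Per3-/- minus WT, with the SE of the linear model as a bar, in hypothalamus (8 against 8 mice) and eye (7 against 7), and filled points were well above background on a majority of the arrays of the tissue. Bars are longer in the eye, where 49 of 59 points of family 2 and 6 of 8 of family 3 lie above 0 (38 and 2 without Per3-/- mouse 2).

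Taken as a family, P450 probes leaned toward Per3-/- in the eye, and in the hypothalamus their split was that of all probes. In the eye, the Per3-/- mean was higher for 88 of 117 probes, where 50.1% of all probes were higher, and the median difference was 0.09 (log2) against 0.00 over all probes. In the hypothalamus it was higher for 50 of 117 (42.7%), where 43.1% of all probes were higher, with medians of -0.02 and -0.01. The lean in the eye depended on single animals. Without the eye of Per3-/- mouse 2 the count was 65 of 117 and the median 0.03, without WT mouse 3 they were 63 and 0.02, and without WT mouse 4 they were 73 and 0.06, whereas leaving out Per3-/- mouse 3 or 4 or WT mouse 7 or 8 gave counts of 86 to 91 and medians of 0.16 to 0.18. With same-numbered mice as pairs, which leaves out that eye and the eye of WT mouse 1, the count was 60 and the median 0.00. By group, the eye medians were 0.25 for the Cyp1 group, 0.14 for the remaining family 2, 0.30 for family 3 and 0.06 for family 4, and between -0.09 and 0.03 for the steroid, sterol, vitamin D and retinoic acid groups. Without the eye of Per3-/- mouse 2 the median turned to -0.19 for family 3, with 2 of 8 probes above 0 in place of 6, and to -0.03 for family 4, and it was 0.04 for family 2 and 0.22 for the Cyp1 group. With same-numbered mice as pairs it was -0.25 for family 3, -0.06 for family 4, 0.02 for family 2 and 0.14 for the Cyp1 group. Without WT mouse 3 it was 0.05 for family 2. The hypothalamus medians of these groups lay between -0.05 and 0.08.

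The 3 genes followed most closely differed in how clearly the genotypes separated. Cyp1b1 in the hypothalamus ran from -2.79 through a median of -2.48 to -1.86 in WT mice and from -2.38 through -2.18 to -1.28 in Per3-/- mice. The groups overlapped, with Per3-/- mouse 7 above every other hypothalamus. The Per3-/- mean was 0.33 higher (limma SE 0.16, two-sided exact permutation p = 0.0533 over 12870 arrangements). In the eye Cyp1b1 ran from -1.11 through -0.92 to -0.61 in WT mice and from -1.14 through -0.54 to -0.40 in Per3-/- mice. The eyes of 4 Per3-/- mice lay above every WT eye, and that of Per3-/- mouse 2 was the lowest of all 14. The mean was 0.25 higher (SE 0.12, exact permutation p = 0.0664 over 3432 arrangements). Without mouse 2 the difference was 0.33, and with same-numbered mice as pairs it was 0.29, both at an unadjusted limma p under 0.05 (0.0043 and 0.0056) and at an adjusted p of 1.0. The second Cyp1b1 probe, well above background on 0 of 16 hypothalamus arrays and on 6 of 14 eye arrays, was 0.63 lower in Per3-/- hypothalamus (exact permutation p = 0.0131), a difference between signals at background.

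Cyp1a1 in the eye ran from -7.82 through -4.67 to -3.77 in WT mice, where 5 of 7 arrays were well above background, and from -5.82 through -4.00 to -3.05 in Per3-/- mice, where 7 of 7 were. The ranges overlapped over most of their length, with WT mouse 4 lowest and Per3-/- mouse 7 highest. The means differed by 1.01 (2.02-fold, SE 0.58, exact permutation p = 0.131). Within the 4 slides, each of which held both genotypes, the difference was -0.51, 2.62, 0.20 and 0.98. The first slide held 1 eye of each genotype, WT mouse 1 and Per3-/- mouse 2, and the others held 2 of each. Without Per3-/- mouse 2 it was 1.28 (SE 0.57), and without WT mouse 4 it was 0.58 (SE 0.45). Nqo1, Tiparp, Aldh3a1 and Ahrr, further targets of the same receptor, differed between the genotypes by -0.10 to 0.09 in the eye.

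Cyp2e1 was among the more variable members in both tissues. In the eye it ran from -2.01 through -0.31 to 1.29 in WT mice and from -0.61 through 1.01 to 1.50 in Per3-/- mice. WT mouse 6 lay among the high Per3-/- eyes, and 2 Per3-/- mice lay among the low WT eyes. The means differed by 0.94 (1.92-fold, SE 0.46, exact permutation p = 0.0798), and within the 4 slides by 1.41 (1 eye of each genotype), 1.49, -0.28 and 1.38. In the hypothalamus it ran from -8.06 through -5.71 to -4.71 in WT mice and from -8.62 through -5.59 to -3.08 in Per3-/- mice, well above background on 7 of 8 and 5 of 8 arrays. The groups overlapped almost wholly, with a mean difference of -0.19 (SE 0.70). Per3-/- mouse 7 was the highest animal for Cyp2e1 in both tissues.

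**Figure D3:**
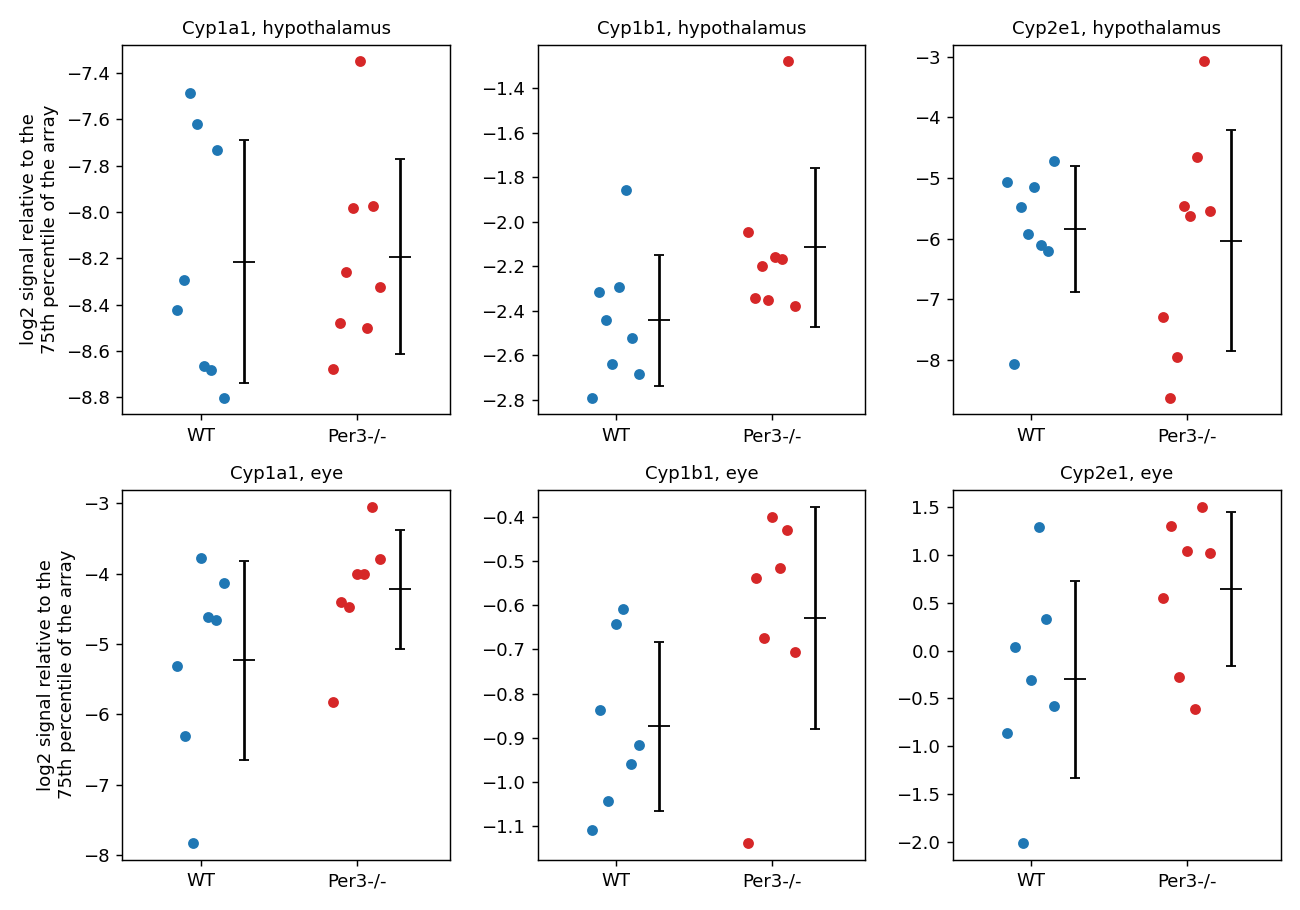
Log2 signal relative to the array's 75th percentile (vertical axes, each panel with its own range) of Cyp1a1, Cyp1b1 (first probe) and Cyp2e1 in single mice, hypothalamus above and eye below. Points are mice, horizontal ticks are means and bars are ± 1 SD. In all 6 panels the WT and Per3-/- points overlap, and Cyp1a1 in the hypothalamus was well above background on no array.

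Of the detected probes with an unadjusted limma p under 0.05, Cyp39a1 in the hypothalamus ran from -2.38 through -2.26 to -1.94 in WT mice and from -2.33 through -2.08 to -1.52 in Per3-/- mice. Values of 3 Per3-/- mice were above every WT value. The means differed by 0.22 (SE 0.10, exact permutation p = 0.0494), and within the 4 slides by 0.40, 0.02, -0.02 and 0.48. The second Cyp39a1 probe differed by 0.14 (SE 0.08), and in the eye the differences were -0.03 and -0.07. Cyp3a13 in the eye ran from -0.48 through -0.27 to -0.07 in WT mice and from -0.66 through -0.52 to -0.18 in Per3-/- mice. Values of 4 Per3-/- mice were below every WT value. The means differed by -0.21 (SE 0.09, exact permutation p = 0.0425), and within the slides by 0.20 (1 eye of each genotype, Per3-/- mouse 2 being 1 of them), -0.16, -0.31 and -0.35. Cyp4a29 in the hypothalamus was the other member past 2-fold, lower in Per3-/- mice by a difference of -1.01 (SE 0.56, exact permutation p = 0.105), but it was well above background on 2 of 8 WT arrays and 0 of 8 Per3-/- arrays.

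Among the steroid, sterol, vitamin D and retinoic acid genes, the Cyp39a1 probe above was the only one at an unadjusted limma p under 0.05 in either tissue. The widest differences were at signals near background. Cyp24a1, which inactivates vitamin D, differed by 0.42 in the hypothalamus, where 4 of 16 arrays were well above background, and the second Cyp7a1 probe by 0.64 in the eye, where 7 of 14 were. Cyp46a1 differed by -0.07 in the hypothalamus and 0.16 in the eye, Cyp19a1 by 0.03 and 0.17, Cyp17a1 by -0.03 and 0.10 and Cyp27b1 by 0.02 and 0.03. Cyp26b1 differed by 0.28 in the hypothalamus, where WT mice ran from -0.43 to 0.53 and Per3-/- mice from -0.45 to 0.96, and by -0.22 in the eye, where they ran from 0.77 to 1.41 and from 0.56 to 1.02. Both pairs of ranges overlapped, and the difference between the effects was -0.50 (limma, adjusted p = 1.0). The 3 Cyp51 probes differed by -0.09 to -0.05 in the hypothalamus and -0.01 to 0.00 in the eye.

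Genes that work beside the P450s gave no call at an adjusted p under 0.05 either. At an unadjusted limma p under 0.05 there were 0 of 11 probes of electron donors and 0 of 35 of nuclear receptors and other regulators in both tissues. In the other companion lists described here, single probes at that p were Nqo1 (0.17) and Srd5a1 (-0.16) in the hypothalamus, and Crabp2 (0.45) and Tbxas1 (0.27), the thromboxane synthase and itself a P450 outside the naming rule, in the eye.

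P450 levels varied far more between eyes than between hypothalami. Among probes that passed background on all arrays of a tissue, the median SD between mice of 1 genotype was 0.18 (log2) over 52 P450 probes in the hypothalamus and 0.36 over 71 in the eye, against 0.13 and 0.18 over all such probes. An SD above 0.5 was found for 1 of the 52 in the hypothalamus (1.92%, against 2.25% of all probes) and for 31 of the 71 in the eye (43.7%, against 8.81%). The eye shares were 35.2% against 6.86% with quantile normalization and 46.5% against 19.7% with normexp background correction. These SDs were not adjusted for slide, so differences between slides are part of them. The brighter Cyp27b1 probe ran from -2.26 to -1.60 in the eyes of slide 2 and from -1.03 to -0.74 in those of slide 4. For Cyp2a5 these ranges overlapped, at 2.24 to 4.04 and -0.03 to 4.58. The part of slide in the SDs was not tested. The widest SDs in the eye were those of Cyp2b9 (1.63), Cyp3a41a (1.41), Cyp2a4 (1.26) and Cyp2a5 (1.27). In the hypothalamus they were those of Cyp2f2 (1.28), then Cyp3a41a and Cyp3a13 (0.46 each), and Cyp3a11 and Cyp2a4 (0.42 each).

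The eye of Per3-/- mouse 2 was high for P450s that are known from liver. It was the highest of 14 eyes for 38 of the 88 detected P450 probes (43.2%, against 8.24% of all detected probes). It stood more than 1 log2 unit above the next eye for 15 of the 88, from 14 genes, against 155 of all 31004 detected probes (0.50%). Those genes, listed after their values were seen, were Cyp1a2, Cyp2c29, Cyp2c40, Cyp2c44, Cyp2d9, Cyp2d10, Cyp2d12, Cyp2d26, Cyp3a11, Cyp3a16, Cyp3a25, Cyp3a41a, Cyp3a44 and Cyp4a14. The gap to the next eye was 1.32 to 3.39, with a median of 2.56. Cyp3a41a, a liver steroid and drug hydroxylase, was at 1.48 in that eye and at -1.61 in the next highest. Cyp3a11, the main mouse counterpart of the drug-metabolizing CYP3A4, was at 0.09 against -2.67, and Cyp2d26 was at 0.79 against -2.30.
Markers of hepatocytes moved with them. All 12 marker probes were highest in the same eye, with Alb at 4.89 there and between -3.20 and 1.31 in the others, and their summed log2 level was 7.36 there, -0.40 to 3.71 in WT eyes and -0.68 to 3.56 in the other Per3-/- eyes. Of the 12, 10 were well above background on every WT eye array and 7 on every Per3-/- eye array. Their part in the P450 values was not tested. The mean difference between the genotypes was above 0 for 15 of the 15 probes with this eye (median 0.30) and for 6 without it (median -0.16). Cyp3a41a went from 0.56 to -0.09.

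**Figure D4:**
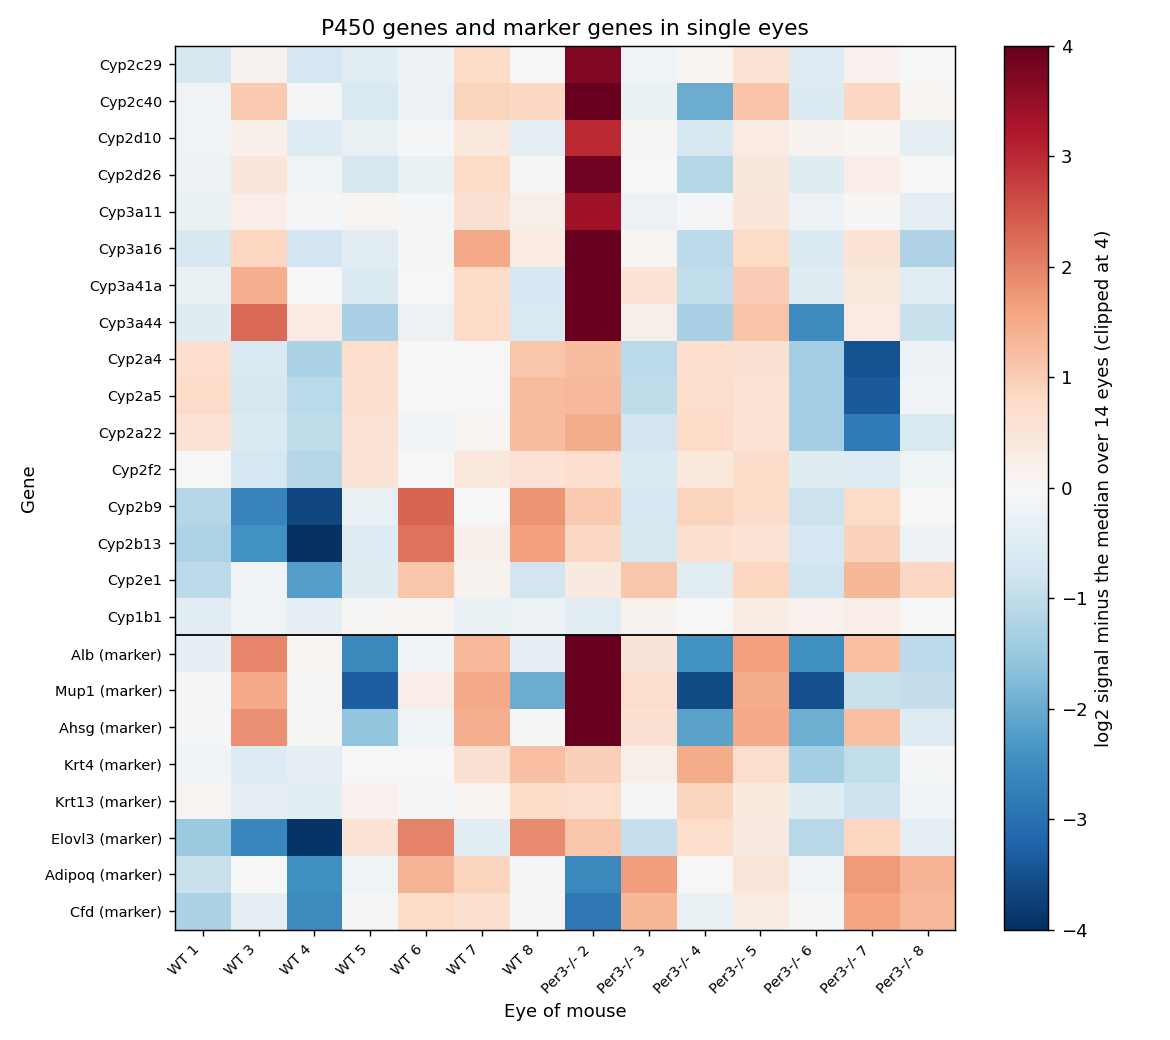
Log2 signal minus the median over the 14 eyes (color, clipped at 4 in either direction) for 16 P450 genes above the line and 8 marker genes below it, in single eyes. The column of Per3-/- mouse 2 is the highest for the Cyp2c, Cyp2d and Cyp3a genes and for Alb, Mup1 and Ahsg, the column of Per3-/- mouse 7 is the lowest for the Cyp2a genes, and that of WT mouse 4 is the lowest for Cyp2b9, Cyp2b13 and Elovl3.

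Other eyes stood apart for other members. Cyp2a5 was at -0.03 in Per3-/- mouse 7 and between 1.96 and 4.64 in the other 13 eyes, and Cyp2a4 and Cyp2a22 were lowest in the same eye. Of 14 probes of ocular surface epithelium markers, 6 were lowest there, with Krt13 at 1.98. Krt12 and Aldh3a1 lay high in that eye, at 8.09 (7.65 to 8.22 over the eyes) and 3.50 (3.12 to 3.53). The summed level of these markers was 9.11 to 9.66 in WT eyes and 8.94 to 9.41 in Per3-/- eyes, and it was lowest in Per3-/- mouse 6. Their part in the Cyp2a values was not tested. Cyp2b9 ran from -6.10 in WT mouse 4 to -0.16 in WT mouse 6, with WT mouse 8 next at -0.68. Elovl3, a lipid elongase of sebaceous-type glands such as the lid's, was lowest in the same WT mouse 4 at -4.72 and highest in WT mice 6 and 8 at 1.20 and 1.12. The other 2 markers of these glands lay otherwise in WT mouse 4, where Far2 was the highest of the 14 eyes at -5.29 and Awat2 was at -4.53, with the highest eye at -4.50. Their part in the Cyp2b9 values was not tested. Cyp2e1 and 1 probe of Cyp2b13 (-8.60) were lowest in WT mouse 4 as well. The other Cyp2b13 probe was at -5.28 there and lowest in Per3-/- mouse 4 (-5.98). The second Cyp2b9 probe was at -6.65 there and lowest in WT mouse 3 (-7.19).
For Cyp2e1, levels of the fat cell marker Adipoq are given beside its own. In WT mouse 4, where Cyp2e1 was at -2.01, Adipoq was at -1.61. In the 3 eyes with the highest Cyp2e1, Per3-/- mice 7 and 3 and WT mouse 6 at 1.50, 1.30 and 1.29, Adipoq was at 2.55, 2.51 and 2.20. The eye of Per3-/- mouse 2 had the lowest Adipoq, -1.74, with Cyp2e1 at 0.55. The summed level of 10 adipocyte probes was 4.16 to 7.09 in WT eyes and 4.05 to 7.74 in Per3-/- eyes, and all 10 had a higher mean in Per3-/- eyes (0.25 to 0.69). Their part in the Cyp2e1 and Cyp2b9 values was not tested.

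In the hypothalamus, Cyp2f2 was set apart by 1 animal. It was at 2.96 in Per3-/- mouse 1, between -2.62 and -1.43 in the other Per3-/- mice and between -2.10 and -0.76 in WT mice. The Per3-/- mean was 0.29 higher with that mouse and -0.31 relative to WT without it (SE 0.22). Cyp4b1, another airway P450, was also highest there, at -4.03 against -6.29 to -5.33 elsewhere. Of 5 anterior pituitary marker probes, 4 were highest in the same animal, with Prl at 8.13 and Gh at 8.19, and their summed log2 level was 9.59 there, -0.40 to 5.33 in WT mice and -0.61 to 0.63 in the other Per3-/- mice. WT mouse 5, next in that sum with Prl at 4.65, had a Cyp2f2 level of -0.76, the second highest of the 16. The part of these cells in the Cyp2f2 values was not tested.

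**Figure D5:**
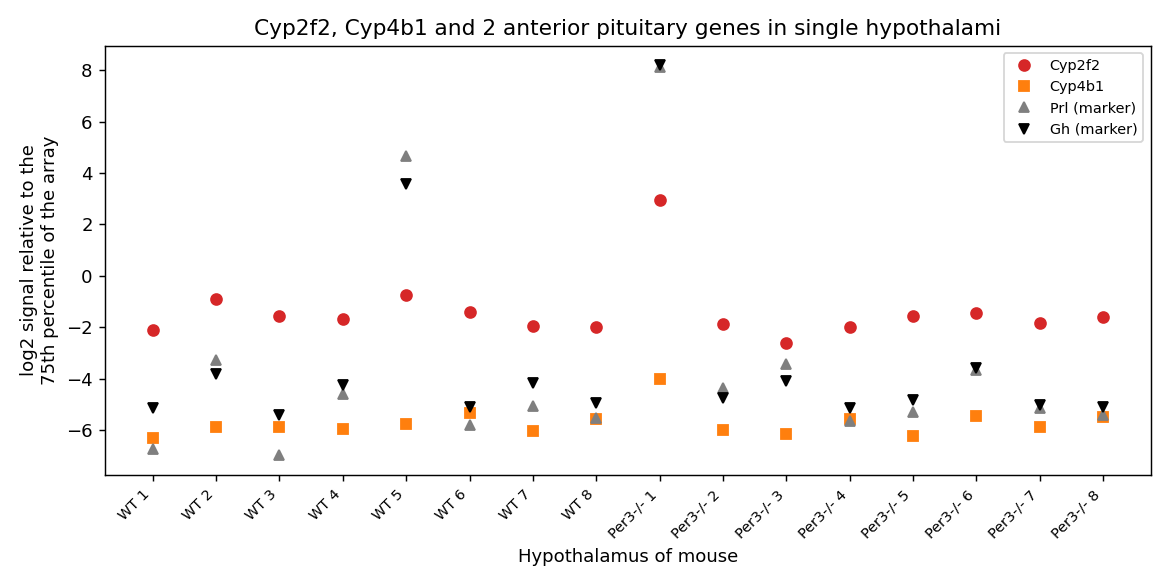
Log2 signal relative to the array's 75th percentile (vertical axis) of Cyp2f2, Cyp4b1 and the pituitary hormone genes Prl and Gh in the hypothalamic blocks of the 16 mice (horizontal axis). All 4 genes are highest in Per3-/- mouse 1, and Prl, Gh and Cyp2f2 are second highest in WT mouse 5.

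Per3-/- mouse 7 was the hypothalamus with the highest Cyp2e1 (-3.08, next -4.66), Cyp1b1 (-1.28, next -1.86) and Cyp39a1 (-1.52, next -1.87). Of 12 hepatocyte marker probes, 6 were highest there too, Alb at -0.67 among them. The 2 probes of Apoc3, at -2.48 and -2.60, were lowest there. All 7 choroid plexus marker probes had a higher mean in Per3-/- hypothalamus, by 0.33 to 1.25, and their summed level was -1.13 to 3.66 in WT and -0.99 to 4.09 in Per3-/- mice. It was highest in Per3-/- mouse 4, which was also the highest hypothalamus for Cyp4f39 (-4.24). Cyp1b1 was at -2.35 and Cyp39a1 at -2.33 in mouse 4, where the lowest Per3-/- values were -2.38 and -2.33. In mouse 7, 1 plexus probe (Aqp1) was the highest of all hypothalami and 2 (Kl and Folr1) were the lowest. The part of choroid plexus cells in the Cyp1b1 and Cyp39a1 differences was not tested. Without mouse 7 the differences were 0.21 for Cyp1b1 and 0.15 for Cyp39a1, and Cyp2e1 moved to -0.61, none at an unadjusted limma p under 0.05.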

How the data were processed

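RNA of single hypothalamic blocks and single eyes was labeled with Cy3 (200 ng of total RNA per sample) and hybridized to Agilent Whole Mouse Genome arrays, 1 sample per array. The authors extracted spot intensities with Agilent Feature Extraction. The deposited processed signals are, per the file headers, linear intensities after background subtraction and are not normalized between arrays. A table of log2 values deposited by the authors was set against them and holds log2 signals relative to the 75th percentile of the array, minus the median of the probe over the arrays of the tissue, and they were used as an alternative. The same files mark each spot as well above background, saturated, uneven or an outlier. No P450 spot was saturated.

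For each array, log2 of the processed intensity was taken relative to the 75th percentile for 41174 non-control probes, after leaving out uneven and outlier spots (36 to 91 per array). P450 probes were those whose deposited gene name starts with Cyp and a digit, and eye arrays were matched by probe. For 109 of the 117 the accession was found in RefSeq, and 3 probes carry another symbol today (Cyp2c44 is Cyp2c23, and Cyp2j11-ps is Cyp2j11). Genotypes were compared within each tissue and tissues over all 30 arrays with limma 3.58.1 in R 4.3.3 (mouse as a random block for the latter, correlation 0.058), and p-values were adjusted by Benjamini-Hochberg over all 41174 probes. Single members were compared by two-sided exact permutation of the means in Python 3.11.15, without adjustment over members. A fold against a group in which a probe was well above background on no array was computed against the lowest signal above background on those arrays, or the probe's own signal where higher, and is given as "at least". Scripts were tested on simulated data. Replicates are separate mice, and precision is limited by their number.

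Members, gene lists and tests were chosen with earlier results of these data known. Probes named with values were Cyp1a1, Cyp1b1 and Cyp2e1, members with an unadjusted p under 0.05 in a tissue where they were detected, members past 2-fold, the 5 of widest SD in each tissue, the 5 of largest tissue difference in each direction, and all steroid, sterol, vitamin D and retinoic acid genes. A gene with several probes is given by the brightest. Members named for a single animal (Cyp2a22, Cyp2b13, Cyp2d26, Cyp4b1, Cyp4f39 and those listed with the eye of Per3-/- mouse 2) were chosen after their values were seen. Same-numbered eyes of the 2 genotypes deviated together (correlations of 0.10 to 0.62 in all 6 pairs) and lay on shared slides, so they were treated as pairs in an alternative. In the hypothalamus these correlations were -0.03 to 0.32. Other alternatives were quantile normalization, normexp background correction, a filter on dim probes, slide as a block, the methods' t-test, the deposited log2 values, keeping marked spots and leaving out each mouse. One list of companion genes is not reported here.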

Additional observations from a re-analysis of the deposited data

Results flagged for a closer look

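The brightest probe of each gene named by the rules in the processing section was examined in each group where a majority of its arrays were well above background. Second probes and members named for a single animal, such as Cyp2d9 and Cyp2d26, were not examined in this way. In these groups of 7 or 8 mice, 9 values lay far from the rest of their group, measured by the gap to the nearest value as a share of the group's range. Chance flags about 1 in 20 groups, and 104 groups were tested. The eye of Per3-/- mouse 2 accounted for 5 of these 9. It was high for Cyp3a11 (0.087, nearest Per3-/- eye -2.81), Cyp3a41a (1.48, nearest -2.07), Cyp4f14 (-1.42, nearest -2.13) and Cyp2r1 (-4.05, nearest -4.46), and low for Cyp1b1 (-1.14, nearest -0.71). The eye of Per3-/- mouse 5 was low for Cyp11a1 (-6.22, nearest -5.60). In the hypothalamus, Per3-/- mouse 1 was high for Cyp2f2 (2.96, nearest Per3-/- value -1.43), Per3-/- mouse 7 was high for Cyp1b1 (-1.28, nearest -2.05), and WT mouse 2 was low for Cyp2e1 (-8.06, nearest -6.21).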

How the results depend on the processing

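The count of P450 probes at an adjusted p under 0.05 between the genotypes stayed at 0 in both tissues under every alternative, and the lowest adjusted p was 0.425, with normexp in the hypothalamus. Counts at an unadjusted p under 0.05 moved, and each is followed by the count over all 41174 probes. In the hypothalamus they were 2 and 1157 in the main fit, 1 and 1262 with quantile normalization and 12 and 4024 with normexp. They were 4 and 1522 with slide as a block, 1 and 1273 by the methods' t-test, and 1 to 5 and 880 to 1556 without 1 mouse. In the eye they were 1 and 741 in the main fit, 2 and 339 with normexp and 3 and 1157 with slide as a block. Without 1 mouse they were 0 to 5 and 574 to 1338. With the replicate number as a block they were 5 and 1608 in the eye and 2 and 1460 in the hypothalamus. This block changed no adjusted call of a P450 probe. For the difference between tissues the counts were 2 and 929 in the main fit, 1 and 872 with quantile normalization and 16 and 1329 with normexp. The family's median genotype difference was -0.13 in the hypothalamus with normexp, where the median over all probes was -0.08, and -0.04 to 0.00 without 1 mouse. In the eye it was 0.32 with normexp, where the median over all probes was 0.18, and 0.02 to 0.18 without 1 mouse. Directions turned for Cyp1a1 in the hypothalamus (-0.19 with normexp, -0.10 to 0.12 without 1 mouse), the second Cyp1b1 probe in the eye (0.29 with normexp), and, without 1 mouse, Cyp3a13 (-0.13 to 0.078) and Cyp2e1 (-0.61 to 0.18) in the hypothalamus and Cyp4a29 in the eye (-0.31 to 0.33). Between the tissues, quantile normalization turned Cyp11a1 to -0.59 and the second Cyp19a1 probe to -0.13, ended the call of Cyp11b2 (0.21) and added that of Cyp21a1 (-0.65), and normexp ended those of Cyp11b2 (0.23), the Cyp11a1 probe that was higher in the hypothalamus (-0.21) and both Cyp7a1 probes (0.54 and 0.35). The cause was not tested. Signals near background limit Cyp1a1, Cyp24a1 and Cyp2r1 in the hypothalamus, and Cyp4a29, Cyp7a1, Cyp11b2 and the second Cyp1b1 probe.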
